A study of Mus musculus with 56 samples.

Results

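The mu class of glutathione transferases was followed in mouse liver RNA through its 7 genes, Gstm1, Gstm2, Gstm3, Gstm4, Gstm5, Gstm6 and Gstm7. The genes were taken by name from a table of 23813 genes. The family itself was chosen on measured values of these same libraries, since it was picked from earlier results of the table, and its values are therefore given as a description and without p-values. Glutathione transferases join the thiol of glutathione to reactive, mostly fat-soluble compounds, so that these can be exported and broken down. Cytosolic enzymes of the mu class act as pairs of subunits, accept aromatic epoxides and products of lipid oxidation, and are abundant in hepatocytes. Mu-class genes are textbook targets of NRF2, the transcription factor of the antioxidant response, and of xenobiotic receptors such as CAR.

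Liver RNA came from 12 male mice in 3 groups of 4. Hypothyroid wild type (WT) mice were fed for 16 days on low iodine chow that contained 0.15% propylthiouracil (PTU), a blocker of thyroid hormone synthesis. Hyperthyroid WT mice were fed likewise and given 5 μg of triiodothyronine (T3) by injection over the last 4 to 6 days, while WT controls received vehicle. Hypothyroid L-NCORdeltaID mice had the PTU diet and carry a nuclear receptor corepressor 1 (NCOR1) altered in liver that lacks the domains that contact thyroid hormone receptor (TR). All 3 groups thus share PTU, and no euthyroid group was analysed here. The mutant was kept on a mixed C57BL/6;129S background. The study's methods do not state the background of the WT mice of these libraries, so that strain and genotype cannot be told apart here. The promoter that limits the change to liver was not given in the sources used here. The study gives ages as group means only, lower for mutant than for WT mice on PTU, so that age and genotype cannot be told apart. Each library was sequenced on 2 instruments.

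The 7 genes form a cluster of 149 kb on chromosome 3 of mm9, from position 107698739 to 107847812. From the low end the order is Gstm5, Gstm7, Gstm6, Gstm3, Gstm2, Gstm1 and Gstm4, with Gstm5 on the plus strand and the other 6 on the minus strand. To show what lies before the start sites of the members whose RNA differed most, the 250 bases upstream are given for Gstm1, Gstm2, Gstm3 and Gstm6. Gstm5 is added as the member that was not lower with T3. The sequences are those of RefSeq (GRCm38.p6), each of which matched mm9 exactly once, and run 5′ to 3′ on the strand of the gene. Capitals mark CCAAT boxes (CCAAT), GC boxes (GGGCGG) and the core of an antioxidant response element (TGACNNNGC), the site bound by NRF2, on either strand.
Gstm1, chr3:107820892-107821141, minus strand: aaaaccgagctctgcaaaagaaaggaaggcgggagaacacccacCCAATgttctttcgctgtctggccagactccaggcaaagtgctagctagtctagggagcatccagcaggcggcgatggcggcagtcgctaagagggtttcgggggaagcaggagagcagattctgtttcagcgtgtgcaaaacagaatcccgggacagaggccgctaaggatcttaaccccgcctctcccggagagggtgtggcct
Gstm2, chr3:107789339-107789588, minus strand: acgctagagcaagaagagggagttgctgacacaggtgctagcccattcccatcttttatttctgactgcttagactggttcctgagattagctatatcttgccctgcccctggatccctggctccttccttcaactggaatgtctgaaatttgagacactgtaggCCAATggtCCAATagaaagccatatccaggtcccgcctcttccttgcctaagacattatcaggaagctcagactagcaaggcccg
Gstm3, chr3:107772093-107772342, minus strand: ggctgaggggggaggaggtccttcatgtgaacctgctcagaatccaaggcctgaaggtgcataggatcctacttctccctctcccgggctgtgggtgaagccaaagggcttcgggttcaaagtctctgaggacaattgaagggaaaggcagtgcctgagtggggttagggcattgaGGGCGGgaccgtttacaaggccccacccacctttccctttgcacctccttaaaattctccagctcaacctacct
Gstm6, chr3:107746653-107746902, minus strand: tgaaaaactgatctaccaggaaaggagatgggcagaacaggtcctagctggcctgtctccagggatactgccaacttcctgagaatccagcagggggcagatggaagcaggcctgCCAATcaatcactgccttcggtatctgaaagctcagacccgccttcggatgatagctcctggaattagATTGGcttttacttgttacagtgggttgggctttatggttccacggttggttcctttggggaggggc
Gstm5, chr3:107698522-107698771, plus strand: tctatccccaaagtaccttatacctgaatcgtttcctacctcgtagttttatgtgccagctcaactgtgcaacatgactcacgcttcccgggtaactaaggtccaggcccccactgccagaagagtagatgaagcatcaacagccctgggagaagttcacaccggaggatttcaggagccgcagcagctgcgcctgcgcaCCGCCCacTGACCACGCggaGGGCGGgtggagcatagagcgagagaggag

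The upstream sequences of Gstm1, Gstm2 and Gstm6 held CCAAT boxes, and that of Gstm3 held a GC box at bases -74 to -69 from the start site. Gstm2 had a pair of CCAAT boxes at -85 to -81 and -77 to -73. The antioxidant response element core was found before Gstm5 only among the 7 members, at -42 to -34, between 2 GC boxes on opposite strands. Over 27025 windows of the same length before other genes, 34.5% held a CCAAT box, 32.9% a GC box and 10.1% the antioxidant response element core. The half-site AGGTCA, read by nuclear receptors and present in 13.8% of all windows, was not among the letters of any of the 7. These matches describe letters in this window and no binding was measured. A single start site was used per member. The windows before further RefSeq start sites of Gstm1, Gstm4, Gstm6 and Gstm7 were not searched.

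TR binds best to a direct repeat of AGGTCA spaced by 4 bases (DR4). The cluster held 0 exact DR4 on either strand and 3 sequences that match 11 of the 12 half-site bases, all 3 inside a deposited acetylated region. Of 1045 windows of the cluster's length along chromosome 3, 4.4% held an exact DR4, 62.7% held at least 1 match of 11 or 12 bases, and 10.4% held at least 3. Capitals mark the half-sites. In 2 of the 3 the letters are the same and lie in coding sequence, 1360 bp from the Gstm3 start site and 1353 bp from that of Gstm6. The third lies between Gstm1 and Gstm4, 12992 bp from the Gstm1 start site.
Gstm3, chr3:107770732-107770747, minus strand: GGGTCAcacaAGGTCA
Gstm6, chr3:107745299-107745314, minus strand: GGGTCAcacaAGGTCA
between Gstm1 and Gstm4, chr3:107833883-107833898, minus strand: GGGTCAcataAGGTCA

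The members resemble each other closely in coding sequence, which bears on every value below. Gstm1 and Gstm3 share 89.5% of aligned coding bases (GENCODE M1), the highest share of any pair, while Gstm5 shares 67.9% to 70.5% with the other 6. The longest stretch without a difference between Gstm3 and Gstm6 spans 125 bases, over coding bases 169 to 293 and 3 exons. The longest between Gstm1 and Gstm3 spans 112 bases, over coding bases 389 to 500 and 2 exons. Both are printed because reads within them cannot be assigned to one gene, and in the first the near DR4 is in capitals.
Gstm3 and Gstm6: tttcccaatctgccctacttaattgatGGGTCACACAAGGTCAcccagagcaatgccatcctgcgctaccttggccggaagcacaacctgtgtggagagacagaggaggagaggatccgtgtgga
Gstm1 and Gstm3: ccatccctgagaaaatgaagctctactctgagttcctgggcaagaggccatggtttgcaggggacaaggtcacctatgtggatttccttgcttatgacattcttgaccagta
Per the study's methods, the values rest on reads with a single place of alignment, so that reads that fit both paralogs equally well are missing from both, and the levels of these paralogs are uncertain to that extent.

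The deposited list of 37200 regions with acetylated histone H3 (H3K9 or H3K27, merged over hypothyroid and hyperthyroid WT liver) marks chromatin in an active state. Each of the 7 start sites lay inside a region of its own. Of 11812 genes that were tested for T3 and have a start site in GENCODE M1, 81.9% had it inside a region, so that a share this high is common for expressed genes. Regions covered 41.4% of the cluster, compared to 5.76% of the autosomes. The 11 regions that touch the cluster ranged from 1520 to 12374 bp, with a median of 5232 bp, against a median of 2537 bp for the whole list. The region at Gstm3 was the longest of the 11, and that at Gstm5 spanned 1659 bp. The list holds no read numbers, and acetylation by group was not analysed here.

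**Figure D1:**
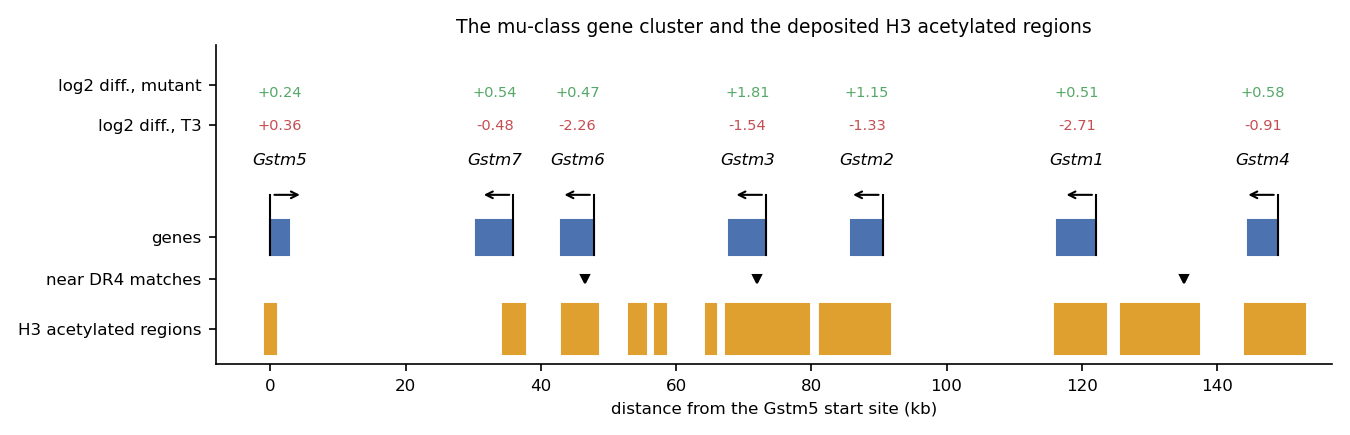
Map of the mu-class cluster on chromosome 3, as distance from the Gstm5 start site in kb. Boxes in blue are the genes with an arrow at each start site, boxes in orange are the 11 deposited acetylated regions, triangles are the 3 near DR4 matches, and the numbers above are the log2 differences of each gene for T3 and for the mutant. Each start site falls inside a region. The members called lower with T3 (Gstm6, Gstm3, Gstm2 and Gstm1) are neighbours, and among them the size does not rise or fall steadily along the cluster. A relation of size to position was not tested.

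In hypothyroid WT liver the mu class was dominated by Gstm1, the principal mu subunit of mouse liver. Gstm1 reached 2447 ± 371 RPKM (reads per kilobase of transcript, scaled to library depth, mean ± SD, n = 4), and its mean ranked 18 among 23813 genes. Gstm3 followed with 293 ± 32.5 RPKM and Gstm6 with 118 ± 16.3 RPKM. Gstm2 (70.7 ± 15.7 RPKM) and Gstm4 (65.4 ± 5.90 RPKM) could not be ordered, since their libraries overlapped. Gstm7 was at 43.5 ± 4.60 RPKM and Gstm5, a member known mainly from brain and testis, at 6.30 ± 0.562 RPKM. Summed over the 7 genes, the class amounted to 3044 ± 428 RPKM. This was 0.759% ± 0.0903 of the RPKM summed over all 23813 genes, each by its first listed row.

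With T3 the sum was 622 ± 203 RPKM, and Gstm1, Gstm6, Gstm3 and Gstm2 fell. In the fit across all genes (limma on log2(RPKM + 0.1), adjusted p under 0.01 and a log2 difference above 1 in size), these 4 of 7 members were called lower and 0 higher. Of 13941 genes tested, 3.47% were called lower, and the family was picked with this contrast known, so the share is a description. At the same adjusted p and any size 6 members passed, against 7.71% of genes. In those 6 every hyperthyroid library was below every hypothyroid WT library, which held for 10.8% of genes. The median log2 difference was -1.33 over the members and 0.23 over all genes tested.

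The RPKM as deposited put the median of all genes tested 0.23 higher with T3 on the log2 scale. When each library was divided by its median ratio to the mean of the libraries, over genes with a mean of at least 1 RPKM, this median became 0.03 and each member's T3 difference was lower by 0.21 to 0.22. Among all genes called, the share called higher was 70.5% as deposited and 54.2% when scaled. With the scaled values Gstm4 joined those called lower, at -1.13.

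Gstm1 had the largest T3 difference of the family. Hypothyroid WT libraries 1 to 4 read 2407, 2184, 2213 and 2983 RPKM, and hyperthyroid libraries 282, 297, 412 and 547 RPKM. The highest hyperthyroid library was thus far below the lowest hypothyroid one, and the mean fell to 384 ± 123 RPKM, 15.7% of the hypothyroid WT mean. The log2 difference was -2.71 (SE 0.22), or -2.93 when scaled. By mean level the gene moved from rank 18 to rank 136.

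Gstm6, a mu-class gene next to Gstm7, followed the same pattern at a lower level. It read 121, 102, 110 and 139 RPKM in hypothyroid WT liver and 21.1, 19.6, 24.5 and 35.1 RPKM with T3. The groups did not overlap, and the log2 difference was -2.26 (SE 0.18). It shares up to 33 coding bases in a row with Gstm1, fewer than with Gstm3 (125).

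Gstm3 read 269, 262, 313 and 327 RPKM in hypothyroid WT liver. With T3 the libraries read 69.3, 65.7, 119 and 184 RPKM, the widest relative spread of any member in that group (SD 50.5% of the mean). The groups did not overlap, and the log2 difference was -1.54 (SE 0.30). Without a filter on low values, the same difference was no longer past the adjusted p.

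Gstm2 read 75.1, 51.5, 66.9 and 89.1 RPKM in hypothyroid WT liver and 22.5, 24.0, 28.8 and 36.6 RPKM with T3. All hyperthyroid libraries were lower, and the log2 difference was -1.33 (SE 0.19). The mean level fell to 39.6% of that in hypothyroid WT liver.

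Gstm4 and Gstm7 were lower in all hyperthyroid libraries by less than the size asked for a call. Gstm4 read 59.2, 63.0, 73.1 and 66.4 RPKM against 32.2, 29.9, 33.1 and 45.3 RPKM, a log2 difference of -0.91 (SE 0.13). Leaving out hyperthyroid library 4, the highest of its group, moved it past that size (-1.04). Gstm7 read 43.4, 38.3, 42.9 and 49.5 RPKM against 31.4, 28.6, 27.9 and 37.2 RPKM, a log2 difference of -0.48 (SE 0.11). A further Gstm4 transcript in the table read 91.8% to 95.0% of the first in the 12 libraries.

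Gstm5, which has the least similar sequence and lies on the other strand, was the member without lower values. It read 5.98, 5.70, 6.56 and 6.94 RPKM in hypothyroid WT liver and 6.87, 6.30, 9.45 and 10.6 RPKM with T3. The groups overlapped, the log2 difference was 0.36 (SE 0.16), and on the scaled values it was 0.15.

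**Figure D2:**
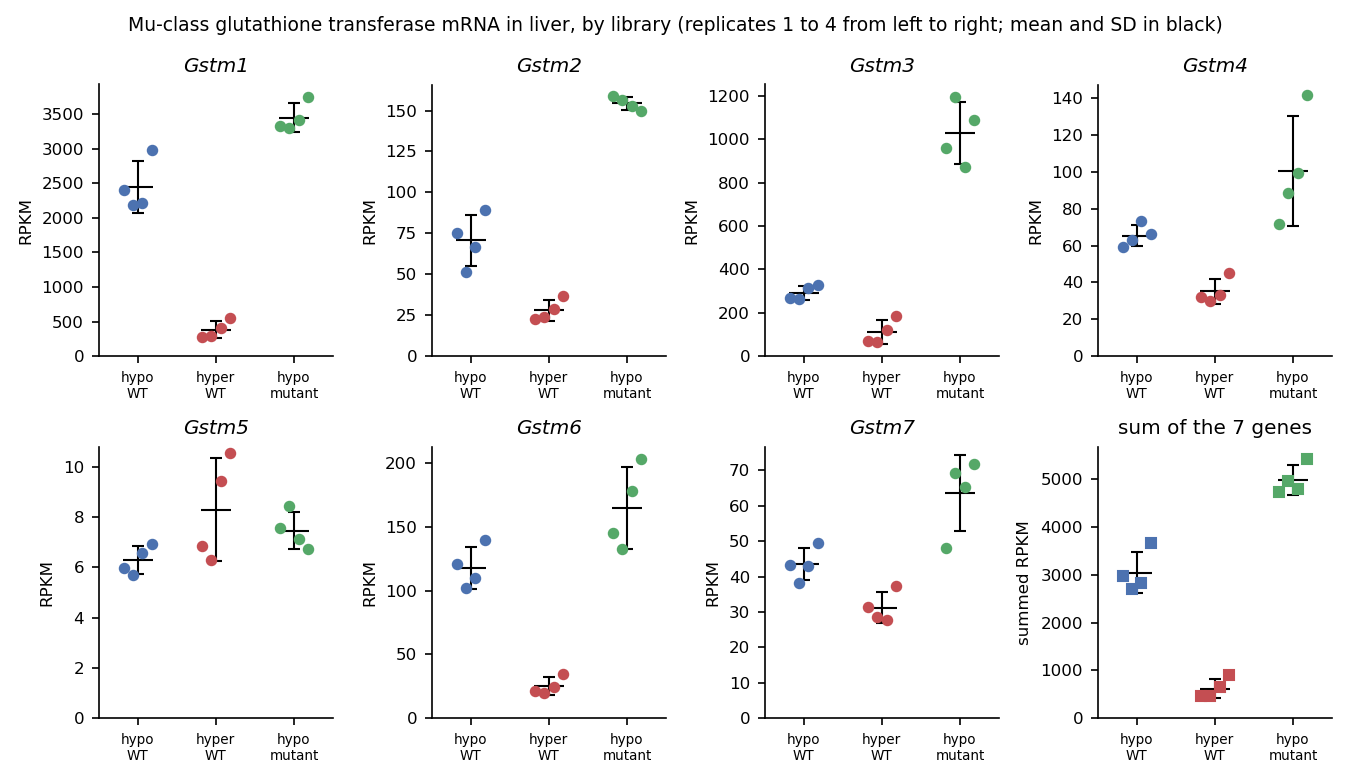
RPKM of each of the 7 genes, and their sum, in every library, with group mean and SD in black (n = 4). The groups are hypothyroid WT in blue, hyperthyroid WT in red and hypothyroid L-NCORdeltaID in green, and each linear axis starts at 0. Hyperthyroid libraries lie below all hypothyroid WT libraries for 6 genes and overlap with them for Gstm5, and library 4 is the highest hyperthyroid one throughout.

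Hyperthyroid library 4 had the highest value of its group for all 7 members, and hypothyroid WT library 4 for 6 of 7. How often library 4 was the highest over all genes was not counted. Its RPKM summed over all genes was also the highest of its group, at 396521 in hyperthyroid and 412558 in hypothyroid WT liver. No hyperthyroid library had a summed Gstm level above 896 RPKM, and no hypothyroid WT library one below 2706 RPKM. Leaving out each library in turn gave 4 or 5 members called lower.

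In L-NCORdeltaID liver the mu class was more abundant than in hypothyroid WT liver, with a sum of 4972 ± 314 RPKM, and Gstm2 and Gstm3 rose. At the threshold for this comparison (adjusted p under 0.01, any size), these 2 of 7 members were called higher and 0 lower. Of 13790 genes tested, 0.725% were called higher, and this contrast, too, was known when the family was picked. Mutant libraries lay above all hypothyroid WT libraries for 3 members, against 7.78% of genes. The median log2 difference was 0.54 over the members and 0.03 over all genes. Both comparisons use the same 4 hypothyroid WT libraries, so that an error in these moves them together.

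Gstm3 showed the largest difference in the mutant. It read 963, 1197, 873 and 1092 RPKM, against at most 327 RPKM in hypothyroid WT liver, and the mean was 3.52 times that of hypothyroid WT. The log2 difference was 1.81 (SE 0.13), and the call held without each library in turn. By mean level the gene moved from rank 180 to rank 51.

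Gstm2 read 159, 156, 153 and 150 RPKM in the mutant, the narrowest spread of any member (SD 2.66% of the mean), and at most 89.1 RPKM in hypothyroid WT liver. The log2 difference was 1.15 (SE 0.15). The call was lost in 5 of 8 fits that left out 1 library (hypothyroid WT 1 or 3, mutant 1, 2 or 3), while the log2 difference stayed between 1.01 and 1.28.

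Gstm1 read 3331, 3303, 3411 and 3756 RPKM in the mutant, all above the highest hypothyroid WT library of 2983 RPKM. Its log2 difference of 0.51 (SE 0.15) did not pass the adjusted p. Gstm4 (0.58, SE 0.18), Gstm7 (0.54, SE 0.13), Gstm6 (0.47, SE 0.15) and Gstm5 (0.24, SE 0.10) also had log2 differences above 0 that did not pass, and their groups overlapped. Gstm4 varied most in the mutant, from 71.8 RPKM in library 1 to 142 RPKM in library 4. Scaling moved no member's mutant difference by more than 0.02 on the log2 scale.

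**Figure D3:**
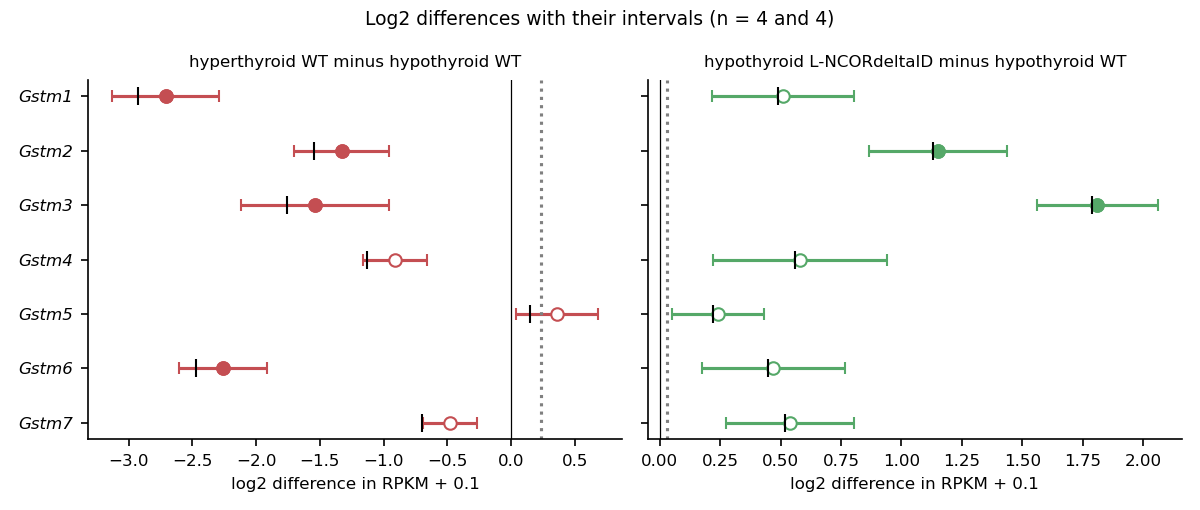
Log2 difference in RPKM + 0.1 of each member from hypothyroid WT, on the left for hyperthyroid WT and on the right for the mutant, with intervals of 1.96 SE (95%). Filled circles are called, open circles are not, short vertical bars give the value on scaled libraries, and dotted lines give the median of all genes. For T3 Gstm1 and Gstm6 lie farthest to the left, and for the mutant Gstm3 and Gstm2 lie farthest to the right.

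Set side by side, the order of the members differed between the contrasts. From the largest in size, T3 differences ran Gstm1, Gstm6, Gstm3, Gstm2, Gstm4, Gstm7 and Gstm5, and mutant differences Gstm3, Gstm2, Gstm4, Gstm7, Gstm1, Gstm6 and Gstm5. Mutant livers and hyperthyroid livers share neither hormone state nor genotype. Mutant means were 0.9 times those of hyperthyroid WT for Gstm5, and 2.03 times (Gstm7) to 9.42 times (Gstm3) for the other members. The same ratios were not taken over all genes, so that these values are a description only.

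The make-up of the class moved with both. Gstm1 gave 80.3% ± 1.37 of the summed Gstm RPKM in hypothyroid WT liver, 61.9% ± 1.26 with T3 and 69.4% ± 2.01 in the mutant. Gstm3 gave 9.68% ± 0.995, 16.9% ± 3.03 and 20.7% ± 2.48. The ratio of Gstm3 to Gstm1 within a library was 0.110 to 0.142 in hypothyroid WT liver, 0.222 to 0.337 with T3 and 0.256 to 0.362 in the mutant, so that hypothyroid WT libraries were below both other groups and these overlapped. Within a library this ratio does not depend on scaling, but reads from stretches that both genes share are missing from it. With T3 the share of Gstm7 was 5.31% ± 1.30 and that of Gstm4 5.85% ± 0.943, compared to 1.44% ± 0.0691 and 2.18% ± 0.346 in hypothyroid WT liver.

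**Figure D4:**
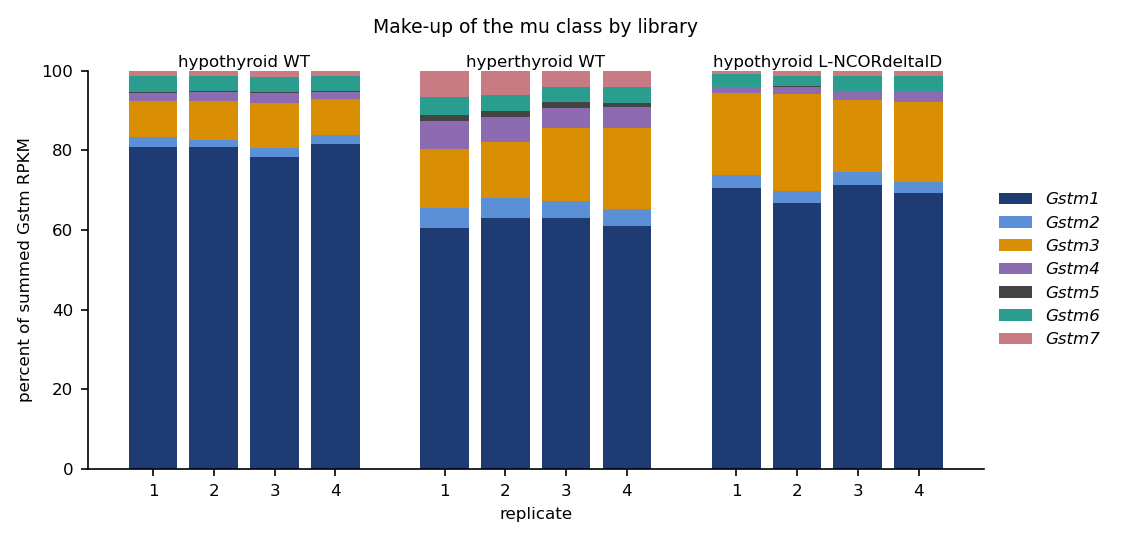
Percent of the summed Gstm RPKM from each member in each of the 12 libraries. Gstm1 takes 80.3% in hypothyroid WT liver, 61.9% with T3 and 69.4% in the mutant, and Gstm3 comes next in every group.

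Other glutathione transferases showed that the mu class was not the only class with lower RNA after T3. Of 19 such genes 17 were tested, of which 8 were called lower and 2 higher with T3, against 3.47% and 8.28% of all genes. Without a filter on low values 6 were called in place of 10, with Gsta3, Gstp1, Mgst1 and Gstt3 lost. This gene list and those below were also chosen with earlier results of these data known. Their counts and p-values are therefore a description. For counts at an unadjusted p under 0.05 no share of all genes was taken. Gsta1 and Gsta2, alpha-class enzymes that reduce lipid hydroperoxides, had log2 differences of -4.23 (SE 0.40) and -4.19 (SE 0.32) (limma adjusted p = 6.4e-05 and 2.4e-05). Gsta1 fell from 4.47 ± 2.60 to 0.121 ± 0.0621 RPKM, close to the 0.1 RPKM added before the logarithm. The size of its difference thus depends on that constant, with -2.16 for 1 RPKM and -5.05 for 0.01 RPKM. Mgst3, a microsomal enzyme, fell from 30.8 ± 7.43 to 6.01 ± 1.85 RPKM. Gstt1, a theta-class enzyme that acts on small halogenated compounds, rose from 192 ± 29.6 to 648 ± 128 RPKM (log2 difference 1.75, SE 0.16, limma adjusted p = 5.7e-05). In the mutant limma called 1 of the 17 higher and 0 lower, against 0.725% and 0.544% of all genes (4 and 3 at an unadjusted p under 0.05). It was Gstt3, also of the theta class, with 40.3 ± 9.27 RPKM in hypothyroid WT liver and 113 ± 15.3 RPKM in the mutant (log2 difference 1.50, SE 0.16, limma adjusted p = 0.0016), a call that was lost without a filter on low values.

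By class, the mu genes made up 51.0% ± 2.77 of cytosolic glutathione transferase RPKM in hypothyroid WT liver, 22.5% ± 5.13 with T3 and 65.6% ± 0.953 in the mutant. The pi class had 827 ± 135 RPKM in hypothyroid WT liver, 310 ± 122 with T3 and 493 ± 64.4 in the mutant. The mutant sum was thus lower and not higher than in hypothyroid WT liver. Neither of its genes was called there, with log2 differences of -0.74 for Gstp1 and -0.78 for Gstp2 (limma adjusted p = 0.024 and 0.1). The alpha class had 1369 ± 128, 661 ± 168 and 1316 ± 177 RPKM, and the theta class 297 ± 41.2, 812 ± 174 and 423 ± 15.9 RPKM.

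**Figure D5:**
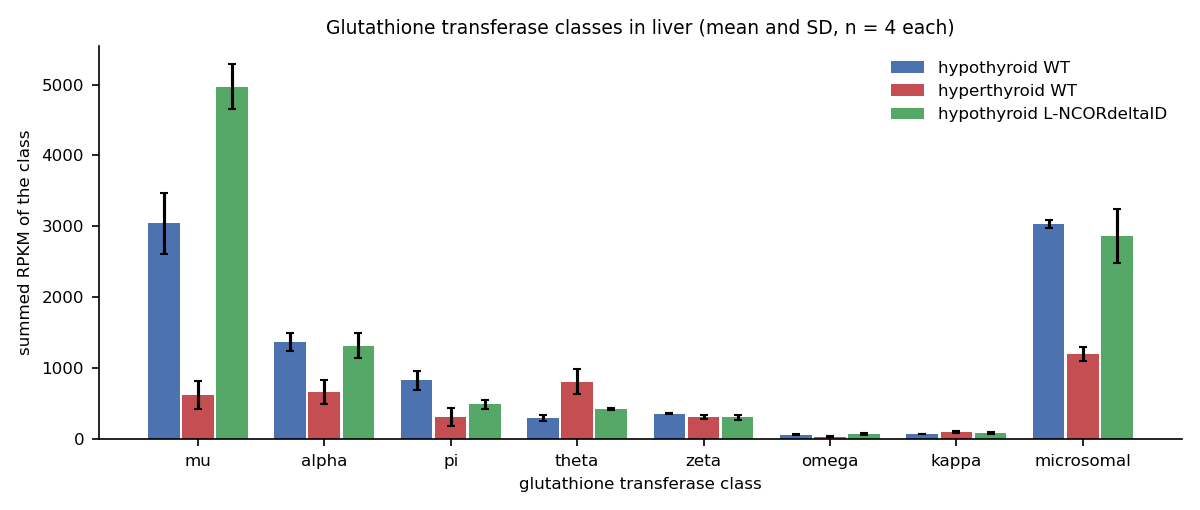
Summed RPKM of each glutathione transferase class in the 3 groups, as mean and SD of 4 libraries. The mu bars run from 622 with T3 to 4972 in the mutant, the widest range of the classes drawn, and theta is highest with T3 (812).

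Genes around the conjugation step were examined next. Of 14 tested genes of glutathione synthesis, recycling and breakdown, 2 were called higher and 1 lower with T3, against 8.28% and 3.47% of all genes. Gpx1, which reduces peroxides with glutathione, rose from 823 ± 131 to 1879 ± 165 RPKM, a log2 difference of 1.20 that was 0.98 and under the size asked when scaled. Ggct, a gamma-glutamylcyclotransferase, rose from 1.67 ± 0.110 to 7.13 ± 1.08 RPKM, and Ggt6, of the gamma-glutamyl transferase family, fell from 11.1 ± 1.70 to 2.60 ± 0.746 RPKM. In the mutant 1 was called higher, against 0.725% of all genes. It was Cth, which makes cysteine for glutathione and rose from 88.6 ± 8.46 to 202 ± 41.7 RPKM. That call was lost without a filter on low values and without hypothyroid WT library 2, 3 or 4 (log2 difference 1.13 to 1.20). Of 7 genes for export of conjugates 1 was called lower and 1 higher with T3, against the same shares of all genes. Abcc3, a pump of the basolateral membrane, fell by 4.92 on the log2 scale (SE 0.21, limma adjusted p = 2.4e-06) and Abcc1 rose by 1.08 (SE 0.25, limma adjusted p = 0.0063), from 0.249 to 0.629 RPKM. The Abcc1 call was lost in 11 of 16 alternatives. These were a pseudocount of 1 RPKM (0.38), scaled libraries (0.91), no filter on low values, the replicate block, a mean of at least 1 RPKM, which Abcc1 does not reach, and leaving out library 2, 3 or 4 of either group (0.89 to 1.10). In the mutant limma called 0 of the 7, with 1 higher and 1 lower at an unadjusted p under 0.05.

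Among 22 transcription factors and cofactors linked to these genes, 2 were called higher and 1 lower with T3, against 8.28% and 3.47% of all genes. In the mutant 1 was called higher and 1 lower, against 0.725% and 0.544% of all genes. Without a filter on low values neither call in the mutant held, at log2 differences of 1.32 for Cebpb and -1.07 for Nr1i3. Nr1i3, which encodes CAR, fell in both comparisons, from 173 ± 25.5 RPKM in hypothyroid WT liver to 44.4 ± 8.81 with T3 and to 81.7 ± 6.06 in the mutant (limma adjusted p = 2.3e-05 and 0.0014). CAR activity was not measured, and a link between Nr1i3 and the Gstm differences was not tested. Cebpb, a factor of the acute-phase response, rose from 12.8 ± 2.10 RPKM to 69.2 ± 37.2 with T3 and to 32.2 ± 5.49 in the mutant, where the call was also lost with all 12 libraries in 1 fit, with the replicate block, and without hypothyroid WT library 4 (1.31) or mutant library 3 (1.29). Stat5b, which acts downstream of growth hormone, rose with T3 from 7.89 ± 0.988 to 26.9 ± 2.96 RPKM. Nfe2l2, which encodes NRF2, was at 30.4 ± 1.50 RPKM in hypothyroid WT liver, 21.0 ± 1.61 with T3 and 31.0 ± 4.58 in the mutant. Its T3 difference of -0.53 (SE 0.07) passed the adjusted p (limma, 4.6e-04) but not the size. Thra and Thrb, the receptor genes, were not called in either comparison, and Ncor1 was not either (log2 difference in the mutant -0.18, SE 0.07). A value over the whole Ncor1 transcript does not test for a deletion of single domains. The remaining list holds reporter targets of NRF2 and CAR, of which 2 of 8 fell with T3 (Nqo1 by 1.68 and Ephx1 by 1.63 on the log2 scale), 1 rose (Hmox1, by 2.01) and limma called 0 in the mutant (2 higher at an unadjusted p under 0.05). Of all genes 3.47% were called lower and 8.28% higher with T3.

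Genes beside the cluster were examined with the same fits. Of 13 other genes of the table within 250 kb, 12 were tested. With T3 limma called 2 of these higher and 0 lower, against 8.28% and 3.47% of all genes. At an unadjusted p under 0.05 there were 6 higher and 1 lower, and no share of all genes was taken at that threshold. On the Gstm5 side the nearest were Eps8l3, Csf1 and Ahcyl1, with log2 differences of -0.06 (SE 0.27), 1.47 (SE 0.18) and 0.08 (SE 0.06). On the Gstm4 side they were Ampd2 (0.44, SE 0.11), Gnat2 (0.86, SE 0.23) and Gnai3 (-0.01, SE 0.06). Csf1, a macrophage growth factor 135.4 kb away, rose from 1.29 ± 0.306 to 3.73 ± 0.566 RPKM (limma adjusted p = 2.5e-04). The other was Sort1, named because of its value, 239.2 kb away (log2 difference 2.56, SE 0.33). In the mutant limma called 0 of the 12, with 1 higher and 1 lower at an unadjusted p under 0.05.

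The genes most like each member over the 12 libraries were sought by Pearson's r of log2(RPKM + 0.1) among 10656 genes with a mean of at least 1 RPKM. The libraries share 3 groups, so that r mainly reads group differences, and it is given as a description. For Gstm1 they were Prss8 (0.990), Tnfrsf19 (0.985) and Abhd14b (0.983), and for Gstm6 Prss8 (0.991), Psmb1 (0.981) and Gcat (0.979). For Gstm2 they were Lpcat3 (0.988), Cds2 (0.983) and Fbxw9 (0.974), and for Gstm3 Lad1 (0.966), Pop4 (0.962) and Lpcat3 (0.961). Prss8 thus led for both members with the largest T3 differences, and Lpcat3, a phospholipid-remodelling acyltransferase, was shared by both members called in the mutant. For Gstm4 they were Psen2 (0.964), Bco2 (0.960) and Gm4956 (0.957), for Gstm5 Loxl3 (0.938), Gng5 (0.929) and Rps6kc1 (0.911), and for Gstm7 Oasl1 (0.946), Ccl9 and Hal (0.944 each).

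Cell markers and depth moved with the groups too. In whole liver, fewer cells of a type and less RNA per cell cannot be told apart. All 6 hepatocyte markers were present, with a summed level of 40216 to 51829 RPKM in hypothyroid WT liver, 21502 to 29906 with T3 and 33034 to 36180 in the mutant. The 6 did not move alike. With T3 the mean of Alb went from 31804 to 14325, that of Ttr from 4411 to 1502, that of Fabp1 from 2783 to 1801 and that of Cps1 from 1161 to 903 RPKM, while that of Apoa1 went from 4224 to 4661 and that of Tat from 932 to 1176 RPKM. In the mutant the means of Alb (22674), Ttr (3785), Fabp1 (1453) and Cps1 (1063) were also lower than in hypothyroid WT liver. Those of Apoa1 (4521) and Tat (1109) were again higher. The 3 macrophage markers found, of 5 listed symbols with Emr1 and Adgre1 as names of the same gene, summed to 27.8 to 40.3, 94.4 to 148 and 34.0 to 73.7 RPKM. Stellate markers (4 of 4) summed to 42.9 to 60.3, 71.0 to 80.8 and 56.0 to 89.6 RPKM. Most of that sum was Dcn (means of 43.5, 64.5 and 63.6 RPKM). Lrat and Col1a1 were also higher in both other groups, while Reln was lower (6.79, 5.91 and 5.68 RPKM). Endothelial markers (4 of 4) summed to 14.1 to 21.2, 22.2 to 27.6 and 20.4 to 27.8 RPKM, with Kdr lower in the mutant (5.77 to 5.35 RPKM). Bile duct markers (4 of 4) summed to at most 4.81 RPKM and lymphocyte markers (3 of 3) to at most 5.69 RPKM in any library, and no marker was listed at 0 throughout a group. The part of these shifts in the Gstm differences was not tested. Depth relative to hypothyroid WT library 1, read from the steps between low values, was 0.931 to 1.22 in hypothyroid WT, 0.682 to 0.833 in hyperthyroid and 1.22 to 1.36 in mutant libraries. The lowest value of any member, 5.70 RPKM for Gstm5, was above the 0.1 RPKM asked of a gene to be tested, and all 7 members passed that filter in both comparisons.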

How the data were processed

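The deposited table gives RPKM per RefSeq transcript, which the authors obtained with STAR (alignment to mm9) and HOMER (quantification) from poly(A) RNA. RPKM keep no read counts, so depth is given relative to 1 library. The deposited list of acetylated regions holds positions and no other score. The members and gene lists were chosen with earlier results of these data known. The first listed row stood for each gene, 1 row without a gene name was dropped, and 0 columns of per-sample values were left unused. Genes with at least 0.1 RPKM in 4 or more of the 8 libraries compared were tested with limma 3.58.1 (R 4.3.3) with a variance trend on log2(RPKM + 0.1), with Benjamini-Hochberg adjustment, since no count model suits RPKM. On simulated data limma called 191 of 200 changed genes (log2 size 2) in the right direction in both comparisons. The noise was normal, with the variances that limma itself had estimated, which favours recovery. Smaller differences, as in all members except Gstm1 and Gstm6 with T3, were not simulated. Named were the members, up to 4 called genes with the largest difference per list and comparison, 5 regulators in any case, the 3 genes most like each member and the 3 nearest neighbours on each side. Nothing says that same-numbered libraries were paired. Positions came from GENCODE M1 (mm9) and identities from global alignment (Biopython 1.88). Alternatives are in the closing section.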

Additional observations from a re-analysis of the deposited data

How the results depend on the processing

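The 4 members called lower with T3 were 3 to 5 under 16 alternatives, and no member's log2 difference changed sign in either comparison. Without a filter on low values Gstm3 was not called with T3, and on scaled libraries or without hyperthyroid library 4 Gstm4 was. For L-NCORdeltaID the 2 members called were 1 (Gstm3) with no filter on low values and with the replicate number as a block, and 1 to 2 without 1 library. Genes called with T3 numbered 1639, 894 with a pseudocount of 1 RPKM and 1430 to 1583 without 1 library. Genes called in the mutant numbered 175, 43 without a filter, 45 with the replicate block and 67 to 187 without 1 library. The replicate block gave 1506 genes with T3. Same-numbered libraries deviated from their group means with correlations of -0.07 to 0.08 for T3 and -0.15 to 0.18 for the mutant, so that they share a number and no pairing was shown. Summed Gstm RPKM without 1 library was a check chosen after seeing the data. It was 2837 to 3156 in hypothyroid WT, 530 to 674 in hyperthyroid WT and 4822 to 5054 in mutant liver. Taking the row with the highest mean could not change the sums, since only Gstm4 has a further row, which was the lower in all 12 libraries. All 7 start sites were already inside a region, so that allowing 1000 bp more could not change that count. The cause of these changes was not tested. The p-values weigh a group difference against the variation between the 4 mice of each group. In limma the variance of each gene is drawn towards a trend with level over all genes. The absolute number of reads per library is not held by RPKM.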

Other observations

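None of the 24 sets of 4 libraries examined (7 members and their sum in 3 groups) had 1 library whose gap to the others passed the 95% critical value of Dixon's test.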
